A study of Homo sapiens with 2 samples.

Results

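The 425 IRF1 summits described here lie in intergenic sequence, more than 1 kb from any transcription start site (TSS) in the deposited annotation and outside annotated repeats. They were taken from the 1986 summits of the deposited list by genomic class, TSS distance and repeat annotation, and made up 21.4% of it. Chromosome 21 short-arm positions below 10000000, where a dense block of summits lies, were left out. Of the 731 intergenic summits of the list, 36 lay in that block and 270 in repeats, and no intergenic summit outside the block lay within 1 kb of a TSS, so the distance limit removed none. The 3 members nearest the limit were assigned to OSM (1003 bp, score 82.1), ADAMTS6 (1038 bp, score 68.2) and PPFIBP2 (1051 bp, score 13.8). The study profiled IRF1 by chromatin immunoprecipitation and sequencing (ChIP-seq) in NB4 cells, an established human acute promyelocytic leukemia line with the PML-RARA fusion. Cells had received the solvent DMSO as control, or all-trans retinoic acid (ATRA), each for 4 hours. Both groups share the line and its fusion, and cells were fixed with formaldehyde before the chromatin was sheared. Each group had 1 library, and the list analysed is that of the ATRA library. NB4 is 1 line, and since a summit list holds no expression values, its cell type could not be checked against markers. The DMSO library has no values here, so no value could be set beside one of untreated cells, and no spread between replicates can be given. Whether that library was the background in peak calling is not known. If it was, being listed and the score would themselves reflect an excess over DMSO. Comparisons between classes of summits are therefore descriptions of 1 library without a test, and their 95% intervals cover counting error only.

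IRF1 is a transcription factor induced by interferons, and retinoic acid is known to raise it in myeloid leukemia cells. Its DNA-binding domain, which the IRF family shares, contacts the word GAAA, and strong sites carry the word repeated at a spacing of 2 bases, as in the interferon-stimulated response element. Besides promoters, such factors bind enhancers, which can lie far from the genes they act on, so the nearest gene of an intergenic summit is a label of position and not a measured target.

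Sequence could be read for the members that fell inside a RefSeq start-site window, which runs from 250 bp before to 50 bp after a start of the GRCh38.p14 annotation. The summits of 11 members lay inside 12 such windows, although the deposited annotation placed each of them more than 1 kb from a TSS. The search was for a GAAA pair, meaning the word GAAA followed after any 2 bases by GAAA again, or its reverse complement with TTTC in place of GAAA. Both strands were searched, and overlapping pairs were counted separately. The 7 members with a pair and the member at CXXC5 are shown, because they let the base composition under these summits near RefSeq starts be seen directly. Each stretch reaches up to 60 bases to either side of the summit as far as the window goes, on the strand of the named RefSeq gene, 5′ to 3′. Capitals mark the pairs, and for CXXC5, which has no pair, the shorter motif AANNGAAA in its reverse complement. The sequences are RefSeq's.
LOC105371082: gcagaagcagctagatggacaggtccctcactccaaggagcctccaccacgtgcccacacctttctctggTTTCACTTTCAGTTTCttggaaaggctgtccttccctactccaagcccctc
LOC107984420: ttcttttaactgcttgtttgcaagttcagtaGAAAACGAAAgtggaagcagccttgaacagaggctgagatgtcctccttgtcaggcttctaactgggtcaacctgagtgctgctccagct
LINC02077: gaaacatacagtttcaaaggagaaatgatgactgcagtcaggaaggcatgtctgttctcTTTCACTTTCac
RIPK1: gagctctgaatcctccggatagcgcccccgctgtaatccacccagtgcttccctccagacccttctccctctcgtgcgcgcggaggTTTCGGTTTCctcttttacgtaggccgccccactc
EXOC3L4: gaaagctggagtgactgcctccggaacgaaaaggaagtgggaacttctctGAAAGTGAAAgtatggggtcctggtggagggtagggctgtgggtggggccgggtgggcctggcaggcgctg
LOC105376621: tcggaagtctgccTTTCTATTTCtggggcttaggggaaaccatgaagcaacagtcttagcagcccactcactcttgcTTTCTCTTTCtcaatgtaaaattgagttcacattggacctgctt
ATXN7L3: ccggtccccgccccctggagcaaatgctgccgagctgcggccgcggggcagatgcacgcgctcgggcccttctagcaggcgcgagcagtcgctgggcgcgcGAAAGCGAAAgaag
CXXC5: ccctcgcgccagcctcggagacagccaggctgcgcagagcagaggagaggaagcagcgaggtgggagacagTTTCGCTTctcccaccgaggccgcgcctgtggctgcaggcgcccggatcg

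The LOC105371082 stretch is chr16:11312747-11312867, plus strand. The LOC107984420 stretch is chr11:31995892-31996012, minus strand. The LINC02077 stretch is chr3:78048914-78048984, minus strand. The RIPK1 stretch is chr6:3068225-3068345, plus strand. The EXOC3L4 stretch is chr14:103094577-103094697, plus strand. The LOC105376621 stretch is chr11:33893825-33893945, plus strand. The ATXN7L3 stretch is chr17:44200020-44200134, minus strand. The CXXC5 stretch is chr5:139647064-139647184, plus strand. At the first of these, named after the non-coding RNA LOC105371082, 2 pairs overlap in 1 run, and this summit had the highest score of the 11 (197). The summit lay at base 61 of each stretch except that of ATXN7L3, where it lay at base 55.

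A GAAA pair stood in the window of 7 of these 11 members (63.6%, 95% Wilson interval 35.4 to 84.8), against 3.58% of all 34961 RefSeq windows of the same length. In windows that held another summit of the list the share was 91 of 244 (37.3%, 31.5 to 43.5), and the interval overlaps that of the members. In all 7 the pair nearest the summit was centred within 60 bp of it, at a median distance of 21.5 bp, and for the other summits the median distance was 15.5 bp. Scores of the 7 members with a pair ran from 15.0 to 197 (median 22.6), and those of the 4 without, namely CXXC5, ARHGEF18, KSR1 and LRRC37B, from 10.9 to 29.4 (median 19.7). The ranges overlap, and the 2 highest scores, 197 and 132, belong to members with a pair. The shorter AANNGAAA was found in 9 of 11 (81.8%, 52.3 to 94.9), in 161 of 244 windows with another summit (66.0%, 59.8 to 71.6) and in 22.8% of all windows, and the intervals of both kinds of summit overlap. It includes every pair by construction. A composite of the ETS word GGAA with GAAA at the same spacing was found in 1 of 11, at EXOC3L4, in 38 of 244 windows with another summit (15.6%) and in 2.81% of all windows. The ETS core AGGAAGT was also found in 1 of 11, again at EXOC3L4, in 32 of 244 (13.1%) and in 8.26% of all windows. A direct repeat of AGGTCA spaced by 5 bases, the classical retinoic acid receptor site, was in none of the 11, in 0 of 244 and in 0.00572% of all windows. These 11 all lie at a gene start of a later annotation, and sequence under the rest of the members was not analysed here.

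**Figure D1:**
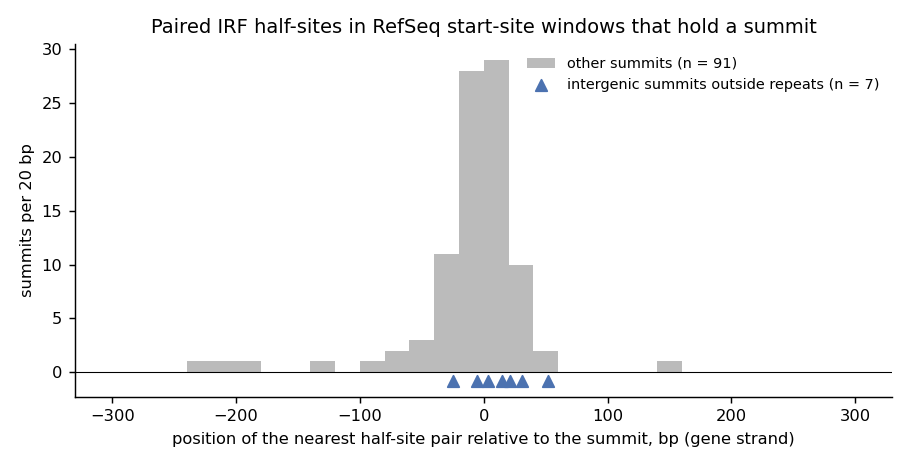
Position of the nearest pair of IRF half-sites (GAAA words 2 bases apart) relative to the summit, in bp on the strand of the RefSeq gene. The grey histogram counts 91 other summits in bins of 20 bp and the triangles are the 7 intergenic members, all within 60 bp of the summit.

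Peak scores of the intergenic members varied widely. The score is the authors' own value per summit, with no stated scale, and it serves here only to rank and describe. It ran from 8.33 to 253, with a median of 24.8 (95% order-statistic interval 22.7 to 26.8) and quartiles of 17.5 and 44.3. Intronic summits outside repeats had a median of 24.6 (22.1 to 26.4) and intergenic summits in repeats one of 26.6 (23.5 to 28.6), and the 3 intervals overlap. Summits within 1 kb of a TSS, outside the chromosome 21 block, had a median of 27.9 (25.4 to 30.8). At the high end the intervals of members and TSS summits did not overlap. Of the 100 highest scores in the list, 13 were members (3.06% of them, Wilson interval 1.80 to 5.16), whereas 48 of the 500 summits near a TSS were among these 100 (9.60%, 7.32 to 12.5). The share was 3.90% of intronic summits outside repeats (2.42 to 6.24) and 4.81% of intergenic summits in repeats (2.84 to 8.06). Both intervals overlap that of the members. A score above 100 was reached by 25 of the 425 members and 24 of 410 intronic summits outside repeats. It was reached by 25 of 270 intergenic summits in repeats and by 162 of the 1986 in the list.

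The highest intergenic score, 253, was at chromosome 6 position 170459656. Its nearest TSS in the deposited annotation was that of PSMB1, a subunit of the proteasome core, 93673 bp away. The flanking named protein-coding spans were FAM120B and PSMB1. In RefSeq the summit lay inside the protein-coding span of LOC124901235, 3458 bp from a start of that gene. It ranked 9 in the whole list. PSMB1 had a second summit, with a score of 26.9, in its promoter (169 bp). The next, with 230.3, was 74901 bp from the TSS of IRF2BPL, a relative of the IRF2-binding proteins, at chromosome 14 position 76953798. A further summit of the list, 66549 bp from the same TSS and 8352 bp from this one, had a score of 201.5. The summit described above at LOC105371082 (197, chromosome 16 position 11312807) was assigned to the microRNA gene MIR548H2 and lay between PRM1, which encodes a sperm protamine, and RMI2, part of the Bloom helicase complex. LY6E, an interferon-induced membrane protein that modulates virus entry, had a score of 196 at 8047 bp downstream of its TSS. HOXB-AS3, a non-coding RNA of the HOXB cluster, was nearest to a summit of 187 that lay inside the RefSeq span of the homeobox gene HOXB3.

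Of the next 5, CASP16P, a caspase pseudogene, had a score of 175, and the summit assigned to WBP4, a splicing factor, had 159. The latter lay 898 bp from a RefSeq start of ELF1, an ETS-family transcription factor transcribed in the other direction. DUSP4, which encodes a phosphatase of MAP kinases, had 156 at 148752 bp upstream, with no other summit within 236481 bp. LINC00910, a long non-coding RNA, had 153, and PLEKHB2, an endosomal membrane protein gene, had 152 with its next neighbour in the list 3761973 bp away. Summits far from their assigned genes followed, 325889 bp from DAOA (148) and 331680 bp from LINC00290 (131.7). In RefSeq the nearest starts, of uncharacterised genes, were 132544 bp and 91610 bp away. Between them in rank stood the summit at LINC03031 (132.3), the second of the sequences shown above. The remaining 7 of the 20 highest were assigned to RAD23B, a DNA repair factor (125), GRB7, a signalling adaptor (122), ACO1, the iron-sensing cytosolic aconitase (121), ARRDC2 (119.9), CHSY1, a chondroitin synthase (117), CACUL1 (109) and CGGBP1, which binds CGG repeats (108). The GRB7 summit lay 3124 bp from the span of IKZF3, a lymphoid zinc finger factor, and the ARRDC2 summit 13845 bp from that of IL12RB1, a receptor chain for interleukin 12. Of these 20 summits 16 were more than 10 kb from a TSS, 4 were annotated to a CpG island, and 16 had no other summit within 10 kb. By the deposited distances most of the 20 were isolated distal sites, which was not particular to them. Among all 425 members 24.9% lay 1 to 10 kb from a TSS and 11.3% had another summit within 10 kb. In RefSeq, however, 7 of the 20 lay inside a gene span, and starts were closer to several of them. They were 99 bp from the LINC03031 summit, 3458 bp from the PSMB1 one and 3311 bp from the ACO1 one.

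**Figure D2:**
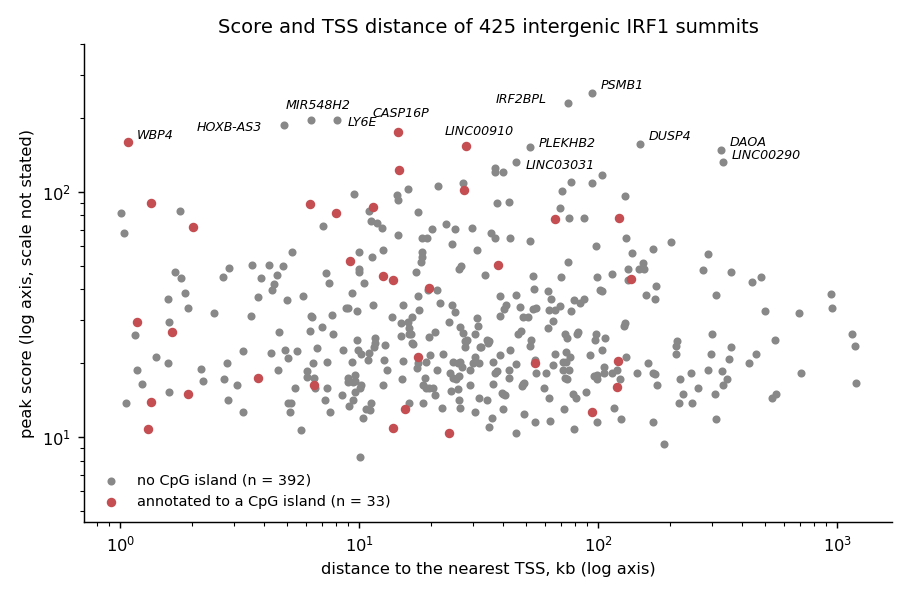
Peak score against distance to the nearest TSS in kb for the 425 intergenic summits, both on log axes, with the nearest gene of the 13 highest named and summits in CpG islands in red. High scores occur from about 1 kb to over 300 kb. None of the 10 summits beyond 500 kb exceeds 38.2, but 10 are too few to show a fall with distance.

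Most members lay at intermediate distances. Between 10 and 50 kb from a TSS were 170 (Wilson interval of the share 35.5 to 44.7%), between 1 and 10 kb 106 (24.9%, 21.1 to 29.3), between 50 and 100 kb 68 (16.0%, 12.8 to 19.8), between 100 and 500 kb 71 (16.7%, 13.5 to 20.5), and beyond 500 kb 10 (2.35%, 1.28 to 4.28). The median distance was 27536 bp. Intronic summits outside repeats lay closer, with 35.9% at 1 to 10 kb (31.4 to 40.6) and 10.5% beyond 100 kb (7.88 to 13.8), against 19.1% of the members (15.6 to 23.1). Intergenic summits in repeats lay farther, with 30.0% beyond 100 kb (24.8 to 35.7). Neither of these intervals beyond 100 kb overlaps that of the members. The median score hardly followed distance, being 26.2 at 1 to 10 kb, 24.7 at 10 to 50 kb, 26.4 at 50 to 100 kb, 23.2 at 100 to 500 kb and 24.1 beyond, with overlapping order-statistic intervals. Upstream of the nearest TSS were 282 members (66.4%, 61.7 to 70.7). The share was 84.9% at 1 to 10 kb, 65.3% at 10 to 50 kb, 58.8% at 50 to 100 kb and 56.3% at 100 to 500 kb, and beyond 500 kb 1 of 10 was upstream. Intergenic summits in repeats had a similar share, 61.5% (55.6 to 67.1), with 92.2% at 1 to 10 kb and 39.3% at 100 to 500 kb. Of the intronic summits outside repeats 18.8% were upstream (15.3 to 22.8). A low share is built into that class, since an intronic site lies downstream of the start of the gene that holds it. The measure itself favours upstream sites, since for an intergenic site downstream of a gene the length of the gene is added to the distance.

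**Figure D3:**
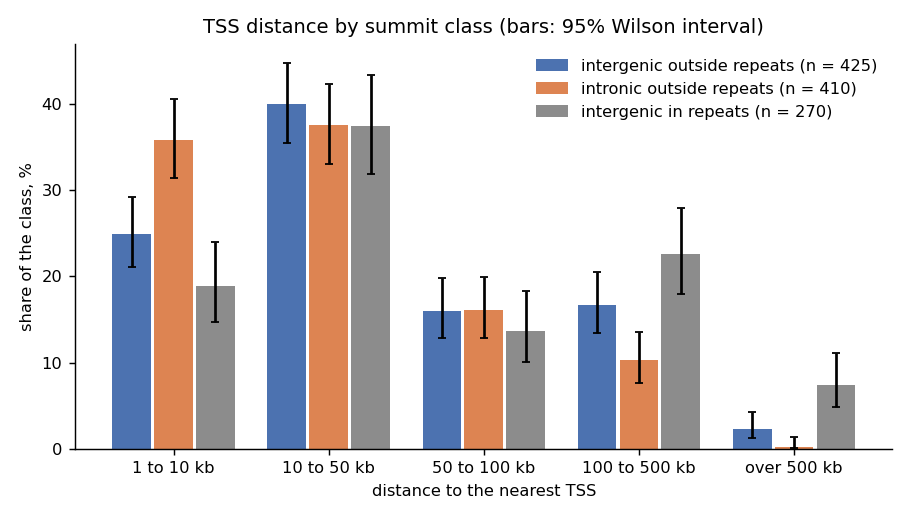
Share of summits (in %) in 5 classes of distance to the nearest TSS for the 425 intergenic members, 410 intronic summits outside repeats and 270 intergenic summits in repeats; error bars are 95% Wilson intervals. Beyond 100 kb the members lie between the other classes.

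The 10 members beyond 500 kb had scores between 14.4 and 38.2. The farthest were assigned to SLITRK1, a neuronal adhesion protein (1193608 bp, score 16.6), HACE1, a ubiquitin ligase (1183926 bp, 23.5), LOC102546299 (1153062 bp, 26.4), ROBO2, an axon guidance receptor (950912 bp, 33.7), and LINC01242 (938768 bp, 38.2). These distances depend on the annotation. The ROBO2 summit was 39 bp from a RefSeq start of the non-coding RNA LINC02077, with a GAAA pair 3.5 bp from the summit, and the SLITRK1 and HACE1 summits were still 292077 and 609687 bp from the nearest RefSeq start.

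Part of the members stood at gene starts of the later annotation. The start-site table holds no chromosome 8 entries, which leaves 408 members. Of these, 36 (8.82%, Wilson interval 6.44 to 11.97) lay within 1 kb of a RefSeq start or of the 5′ end of a RefSeq gene span, and 15 within 200 bp. For 13 of the 36 this was a start of the very gene that the authors' annotation names as nearest. PRDM1, a transcriptional repressor of lymphoid and myeloid maturation, had the highest score of these 13. Its summit (score 108, chromosome 6 position 105992550) was listed 93770 bp upstream, yet lay 140 bp from the 5′ end of the RefSeq span. RIPK1, a kinase of necroptosis signalling, had summits of 81.7 and 22.6 listed 7971 and 8539 bp upstream, which were 359 and 93 bp from RefSeq starts. For CXXC5, a retinoid-inducible gene of myeloid cells, a score of 29.4 was listed at 1592 bp upstream and lay 175 bp from a RefSeq start. For ARHGEF18 (26.3) a listed distance of 46189 bp became 13 bp. NLRC5, the transactivator of MHC class I genes, is not counted among the 36. Its summit (101.5, chromosome 16 position 56989538) was listed 27536 bp upstream and lay 19 bp from the nearer end of the RefSeq span of NLRC5. More broadly, 130 members (30.6%, 26.4 to 35.1) fell inside some RefSeq gene span, 51 of them in a protein-coding one and 73 in that of a long non-coding RNA only. The median distance of the 408 to the nearest RefSeq start was 20567 bp, against 27376 bp in the deposited annotation. Members outside RefSeq spans had a median score of 26.4, and the 130 inside spans one of 22.4.

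CpG islands, the GC-rich stretches typical of promoters, were annotated at 33 members (7.76%). Their median score was 43.7 (order-statistic interval 19.98 to 77.2), against 24.7 (22.6 to 26.4) for the other 392, and the intervals overlap. They had another summit within 10 kb in 10 cases (30.3%), against 9.69% of the others. Protein-coding genes were nearest to 311 members, non-coding RNAs to 95, pseudogenes to 16 and small nuclear RNA genes to 3. Among the non-coding RNAs were 22 cases in which a microRNA gene was nearest, host genes not counted.

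The members were for the most part solitary. The median distance to the next summit of any class was 316935 bp, and 313 members (73.6%) had none within 100 kb. Neither value was set beside that of another class, so neither shows a trait particular to the members. Another summit within 10 kb was found for 48 (11.3%, Wilson interval 8.63 to 14.7), for 9.76% of the intronic summits outside repeats (7.25 to 13.0), for 4.44% of the intergenic summits in repeats (2.56 to 7.61) and for 20.2% of summits near a TSS (16.9 to 23.9). Over the whole list, with the chromosome 21 block, the share was 18.4% (16.8 to 20.2). The intervals of summits in repeats, of summits near a TSS and of the whole list do not overlap that of the members. Members at most 10 kb apart formed 16 groups, 13 of them pairs. Among the 209 members with at least the median score of the list, there were 2 groups, and 5.26% had another such summit within 10 kb. The largest of the 16 groups had 6 summits within 1531 bp, upstream of GRAMD4, a mitochondrial cell death protein gene. It lay on chromosome 22 between positions 46615853 and 46617384. Its scores were uniformly low, from 13.0 to 20.6, and all 6 lay inside the RefSeq span of GRAMD4. At LY6E 3 summits within 2339 bp had scores of 10.7, 17.5 and 196, so a single position dominated. The group of 3 assigned to the pseudogene DNM1P46 (15.9, 20.4 and 77.9) was annotated to CpG islands, 119626 to 121534 bp upstream of it. The highest score of each of the 16 groups had a median of 53.2 and all grouped members one of 21.6. The first is the higher by construction. All 425 members had a median of 24.8. RNU2-1, a small nuclear RNA of the spliceosome, was nearest to 3 members (37.7, 42.0 and 56.7) and LINC01615 to 3 (11.8, 37.9 and 44.1). RNU2 genes form an array of near-identical copies, and how reads that match several copies were placed is not given in the sources used here, so these 3 summits are uncertain. The same holds for 2 members assigned to NUDT4B, on chromosome 1 at positions 146307788 and 148758580 with scores of 56.6 and 48.2, which carry almost the same distance to a TSS of that name (9971 and 9980 bp). Of 392 nearest genes, 367 had 1 member.

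Some members accompanied a summit at the promoter of the same gene. For 23 members (5.41%, 3.63 to 7.99) the nearest gene also had a summit within 1 kb of its TSS, and these were 17 of 392 genes (4.34%). The share was not set beside that of all genes or of another class, so it cannot be called low or high. The member had the higher score in 12 of the 23, and 5 of the 23 are the uncertain RNU2-1 and NUDT4B summits. SOCS1, a feedback inhibitor of interferon and cytokine signalling, had 21.3 at 30588 bp beside 128 at its promoter. FEM1B, a substrate receptor of a ubiquitin ligase, showed the reverse order, with 105 at 21436 bp and 16.9 near the TSS. RXRA, the partner of retinoic acid receptors, had 44.8 at 69514 bp and 16.8 at 960 bp upstream. ICAM1, an adhesion molecule, had 29.6 at 1173 bp and 27.6 at 360 bp upstream.

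Genes of the interferon, immune and myeloid lists were then checked for a member within 100 kb as the nearest gene. Over all 19970 protein-coding genes this held for 245 (1.23%). Among 64 interferon-stimulated genes it held for LY6E alone (1.56%, Wilson interval 0.276 to 8.33), a share near that background. For summits of any class and distance, 45 of the 64 were the nearest gene of one. That count was not made over all protein-coding genes, so it has no background and is not comparable with the share above. Of 34 interferon signalling genes it held for 6 (17.6%, 8.35 to 33.5). Besides IRF2BPL and SOCS1 they included PTPN1, a phosphatase that acts on JAK kinases (28.0 at 26456 bp upstream), STAT4 (18.5 at 37837 bp upstream) and the inhibitor SOCS3 (12.6 at 30609 bp). IRF2BPL is in this list only as a relative of the IRF2-binding proteins. The lists were chosen with earlier results of these data known, so their shares may not be independent of those results. Of 49 myeloid transcription factor genes it held for 6 (12.2%, 5.73 to 24.2). The PRDM1 summit of 108 was the highest and a second one, 64773 bp downstream, had 19.6. The AP-1 partner BATF had 46.5 at 7278 bp upstream, CEBPA, a master factor of granulocytes, 24.1 at 34536 bp, KLF6 20.2 at 26314 bp upstream, HHEX 16.3 at 12519 bp, and LMO2, a bridging factor of stem cells, 15.3 at 1596 bp upstream. Myeloid factor genes have long flanks: the median intergenic length on both sides together was 169345 bp, against 41572 bp for all protein-coding genes. Genes with longer flanks have more intergenic sequence to be nearest to, and the 245 genes with a member had a median of 96669 bp. The part of flank length in these shares was not tested. For the interferon signalling genes the median was 50124.5 bp.

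Of 30 retinoic acid receptor and target genes 4 had a member (13.3%, 5.31 to 29.7), namely RXRA, ICAM1, CXXC5 and TNFAIP2 (14.2 at 7161 bp upstream). The TNFAIP2 summit lay 8607 bp from EXOC3L4, whose own member carried a GAAA pair. Of 32 cell death genes 3 had one (9.38%, 3.24 to 24.2). They were RIPK1, FASLG, which encodes the Fas ligand (36.7 at 87491 bp), and BIRC3, an inhibitor of apoptosis (18.7 at 4579 bp upstream). Cytokine, chemokine and receptor genes had 4 of 55 (7.27%, 2.86 to 17.3), the highest being OSM, a cytokine of the interleukin 6 family (82.1 at 1003 bp upstream). IL2RB (20.6), CCL8 (20.2) and IL10RA (17.8) followed. In antigen presentation, NLRC5 was the single gene of 22 in the MHC class I list (4.55%, 0.807 to 21.8) and HLA-DOA, a class II chain that modulates peptide loading, the single one of 13 in the class II list (7.69%, 1.37 to 33.3), with 98.0 at 9500 bp upstream. GBP2, an interferon-induced GTPase, was 1 of 7 guanylate binding proteins (14.3%, 2.57 to 51.3), with 49.0 at 2847 bp upstream, 2736 bp from the span of GBP7. Each of these 3 rests on 1 summit, and the intervals are wide.

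No member within 100 kb was assigned to any of 35 granulocyte genes, 16 T cell genes or 15 erythroid genes. By the limit of 3 counts these zeros allow shares of up to 8.57%, 18.75% and 20%, so a share equal to that of all protein-coding genes was not distinguishable from none. Over the 12 lists together, 27 of 372 genes had a member (7.26%, 5.04 to 10.4), with 31 summits and a median score of 24.1, close to the median of all members.

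**Figure D4:**
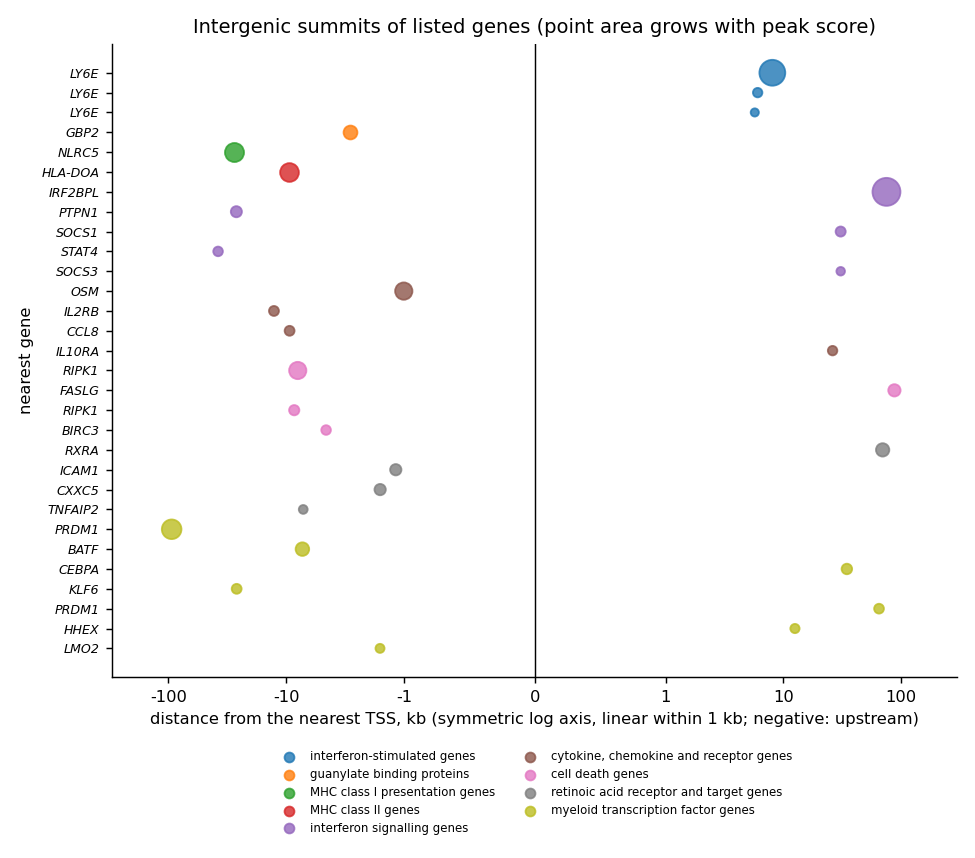
Signed distance from the nearest TSS (kb, symmetric log axis, negative upstream) of members assigned to genes of the lists, coloured by list and with 1 gene left out, with point area growing with peak score. The largest points are IRF2BPL (230.3), LY6E (196) and PRDM1 (108), and most genes have a single summit.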

How the data were processed

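ChIP-seq of IRF1 was done in 2 NB4 libraries, and the deposited summit list of the ATRA library was used. Per the submitters' processing notes the tools were Bowtie2 2.2.9 and MACS 1.4.2 and the build hg38. Genomic annotation came from HOMER (annotatePeaks.pl, hg38), per the file headers. The deposited peak score is the authors' value. Its scale and the read depth were not given in the sources used here, nor were the calling threshold, the treatment of duplicate or multiply mapped reads, and whether the DMSO library served as calling background.

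Members were taken by genomic class, TSS distance and repeat annotation. Genes were matched by identifier to RefSeq GRCh38.p14 (421 of 425 members) and given current symbols. Positions are 1-based on hg38. Flanking genes are named protein-coding spans, without LOC symbols. Shares have Wilson intervals and medians order-statistic intervals, both 95%. No test was run, since summits of 1 library are not replicates. Without a genome sequence the motif could not be searched under all members. The search of RefSeq windows was chosen after seeing the data, as were the distances to RefSeq starts and the comparison with promoter summits of the same gene.

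The members and the 12 gene lists were chosen with earlier results of these data known. Named genes are those of the 20 highest members, of genes or groups with 3 or more members, of the 5 farthest members, of the 3 nearest the distance limit and of listed genes. Others, such as the members near RefSeq starts, were chosen after their values were seen. Alternatives were a score limit, merged summits, a TSS distance of 5 kb, the chromosome 21 block or repeats kept, CpG islands left out, and other reaches. A listed gene is counted but not reported here by name. Counting functions were tested on simulated data. Computations used Python 3.11.15, pandas 2.3.3, NumPy 2.4.6, SciPy 1.17.1 and Matplotlib 3.10.9.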

Additional observations from a re-analysis of the deposited data

How the results depend on the processing

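No paired analysis was possible because there is a single library of either kind, and for the same reason none could be omitted in turn. The planned motif share over all members and its shorter window were not run. Limiting the list to the summits with at least its median score left 209 members with a median score of 44.8, by construction. It gave 2 groups, 6 genes with 2 or more members, 5.26% with another summit within 10 kb and 25.4% inside RefSeq spans, each resting on fewer summits. Keeping summits in repeats gave 695 summits, 23.3% of them beyond 100 kb, 43 genes with 2 or more and 2 interferon-stimulated genes. A neighbour distance of 25 kb gave 15.1% with another summit, and a limit of 50 kb put 35.1% of members beyond it. The other 51 values moved less than their counting interval or, for counts, less than 1.5 times, among them all values with merged summits, a TSS distance of 5 kb, the chromosome 21 block kept and CpG islands left out. In the alternatives added after seeing the data, the share of the 11 sequences with a motif was 81.8% for AANNGAAA and 45.5% for pairs centred within 30 bp. The depth of sequencing is not known, and a site without a summit may still be bound.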
